A study of Homo sapiens with 15 samples.

Results

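Genes of the unfolded protein arm of endoplasmic reticulum stress were followed in breast cancer cells exposed to doxorubicin. They were 10 genes, HSPA5, HSP90B1, CALR, DNAJB9, DNAJC3, SDF2L1, PDIA4, PDIA6, HERPUD1 and XBP1, of 19775 genes measured. They were found as the 25 probe sets, of 41091 that name a single gene and are not controls, whose only gene symbol in the platform annotation is one of these names. CAL51 is a triple-negative breast cancer line, and CALDOX is a resistant line derived from it by long growth in 0.4 µM doxorubicin, an anthracycline that poisons topoisomerase II. The 5 groups, each of 3 arrays from independent cultures, were CALDOX exposed for 24 h to 4 µM of the drug once it had gone 3 passages drug-free, untreated CALDOX, untreated CAL51, and CAL51 exposed to 0.4 µM for 24 h or for 48 h. The labels do not state whether the untreated CALDOX cultures had been kept free of the drug, which CALDOX otherwise receives routinely. Both lines were treated at partial confluency, and CALDOX is a single derived line. The values are log2 probe-set intensities, and no detection call accompanies them.

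The endoplasmic reticulum folds secreted and membrane proteins. When unfolded protein accumulates there, the sensors IRE1, PERK and ATF6 respond. IRE1 splices XBP1 mRNA into the form that encodes an active transcription factor, and cleaved ATF6 enters the nucleus; together they raise chaperones, disulfide isomerases and components that send misfolded protein to degradation. PERK acts through ATF4 and CHOP and through amino acid genes, which are kept apart here. Array probe sets measure total XBP1 RNA and not its splicing.

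Promoter sequences are shown for the 7 members whose windows held an element of the kind through which ATF6 and XBP1 are known to act. The endoplasmic reticulum stress element, ERSE, was searched as CCAAT and CCACG with 9 bases between them, and ERSE-II as ATTGG and CCACG with 1 base between them, on both strands of 300-base RefSeq windows (250 bases before to 50 after the gene's start, GRCh38.p14). All 10 members had a window, 13 windows in all. ERSE was found in 5 members, and ERSE-II in HERPUD1 and SDF2L1. The windows of DNAJB9, DNAJC3 and PDIA4 held neither. Among all 35116 promoter windows, 27 held ERSE (0.0769%) and 19 held ERSE-II (0.0541%). Each sequence below reads 5′ to 3′ on the gene's own strand, with the matching element in capitals.
HSPA5 (chr9:125241344-125241593, minus strand): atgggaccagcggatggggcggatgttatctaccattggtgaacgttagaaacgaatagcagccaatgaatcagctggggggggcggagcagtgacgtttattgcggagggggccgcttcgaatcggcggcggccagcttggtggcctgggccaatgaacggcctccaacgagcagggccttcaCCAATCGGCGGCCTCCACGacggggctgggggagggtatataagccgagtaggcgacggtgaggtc
HSP90B1 (chr12:103930196-103930359, plus strand): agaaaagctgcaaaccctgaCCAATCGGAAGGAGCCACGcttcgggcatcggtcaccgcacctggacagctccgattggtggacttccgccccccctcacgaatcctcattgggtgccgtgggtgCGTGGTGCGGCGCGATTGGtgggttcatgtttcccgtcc
CALR (chr19:12938364-12938422, plus strand): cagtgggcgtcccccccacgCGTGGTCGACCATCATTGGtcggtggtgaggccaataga
PDIA6 (chr2:10812833-10812891, minus strand): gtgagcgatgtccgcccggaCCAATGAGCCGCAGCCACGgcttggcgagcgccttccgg
XBP1 (chr22:28800583-28800641, minus strand): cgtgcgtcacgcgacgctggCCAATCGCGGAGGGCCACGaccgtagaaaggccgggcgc
HERPUD1 (chr16:56932005-56932055, plus strand): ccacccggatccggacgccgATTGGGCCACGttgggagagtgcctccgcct
SDF2L1 (chr22:21642094-21642144, plus strand): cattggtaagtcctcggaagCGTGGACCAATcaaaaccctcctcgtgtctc
The HSPA5 element lay 66 to 48 bases before the start, and HSP90B1 held 2 elements in opposite orientation. The CALR element and 1 of those of HSP90B1 are read on the opposite strand, as is the ERSE-II of SDF2L1. CCACG, the part shared by both elements, was present in all 10 members and also in 13375 of the windows (38.1%). The unfolded protein response element core TGACGTGG was in 256 windows (0.729%) and in 0 of the members. A match describes letters in the window and was not tested as a binding site.

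Arrays of the same group correlated at 0.993 to 0.998 over all probe sets, and arrays of different groups at 0.979 to 0.996. The interquartile range of an array's values lay between 2.54 and 2.67. KRT8, KRT18 and EPCAM, epithelial markers, averaged 11.88 to 14.50 over the 5 groups. CDH1, the epithelial cadherin, averaged 5.99 in untreated CALDOX, against 7.34 in untreated CAL51, and VIM, an intermediate filament protein of mesenchymal cells, averaged 10.86 in untreated CALDOX, against 12.58 in untreated CAL51. KRT19, another simple keratin, averaged 11.3 in untreated CALDOX, against 6.59 in untreated CAL51. Of 7 markers of blood, endothelial and fibroblast cells, 0 passed limma's adjusted test in any of the 6 comparisons, and at an unadjusted p under 0.05 at most 1 was higher and 1 lower. The members' brightest probe sets had means from 9.40 for DNAJB9 to 13.02 for HSPA5, in the 85.6th to 99.6th percentile of probe sets.

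The average level of the members differed among the 5 groups. Relative to its own mean over all arrays, the average member stood at -0.01 ± 0.02 in treated CALDOX, -0.15 ± 0.07 in untreated CALDOX, 0.07 ± 0.06 in untreated CAL51, -0.11 ± 0.12 in CAL51 at 24 h and 0.21 ± 0.08 in CAL51 at 48 h (log2, SD, n = 3 each). The 3 arrays of CAL51 at 48 h lay at 0.125 to 0.27, above every other array, but the nearest, untreated CAL51 replicate 1, was close at 0.121. Among the 3 arrays of CAL51 at 24 h, replicate 2 was lowest at -0.24 and also had the narrowest interquartile range of those arrays, 2.54, while replicate 3 was highest at -0.0036 and had the widest, 2.67. With the interquartile range as a covariate in the fit, 6 members, instead of 3, fell at 24 h, and over all genes 1635 fell instead of 858. Repeated quantile normalization, which gives the arrays a common spread, added XBP1 at 24 h as higher (0.18, limma adjusted p = 0.024). Over the 15 arrays, 44 of the 45 pairs of members correlated positively, with a median r of 0.63, from -0.08 for DNAJB9 and PDIA6 to 0.93 for DNAJB9 and HERPUD1. These points share the same 15 arrays and their groups, so the correlations are a description. In bulk RNA, a lower level in each cell and fewer cells with a high level cannot be told apart.

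**Figure D1:**
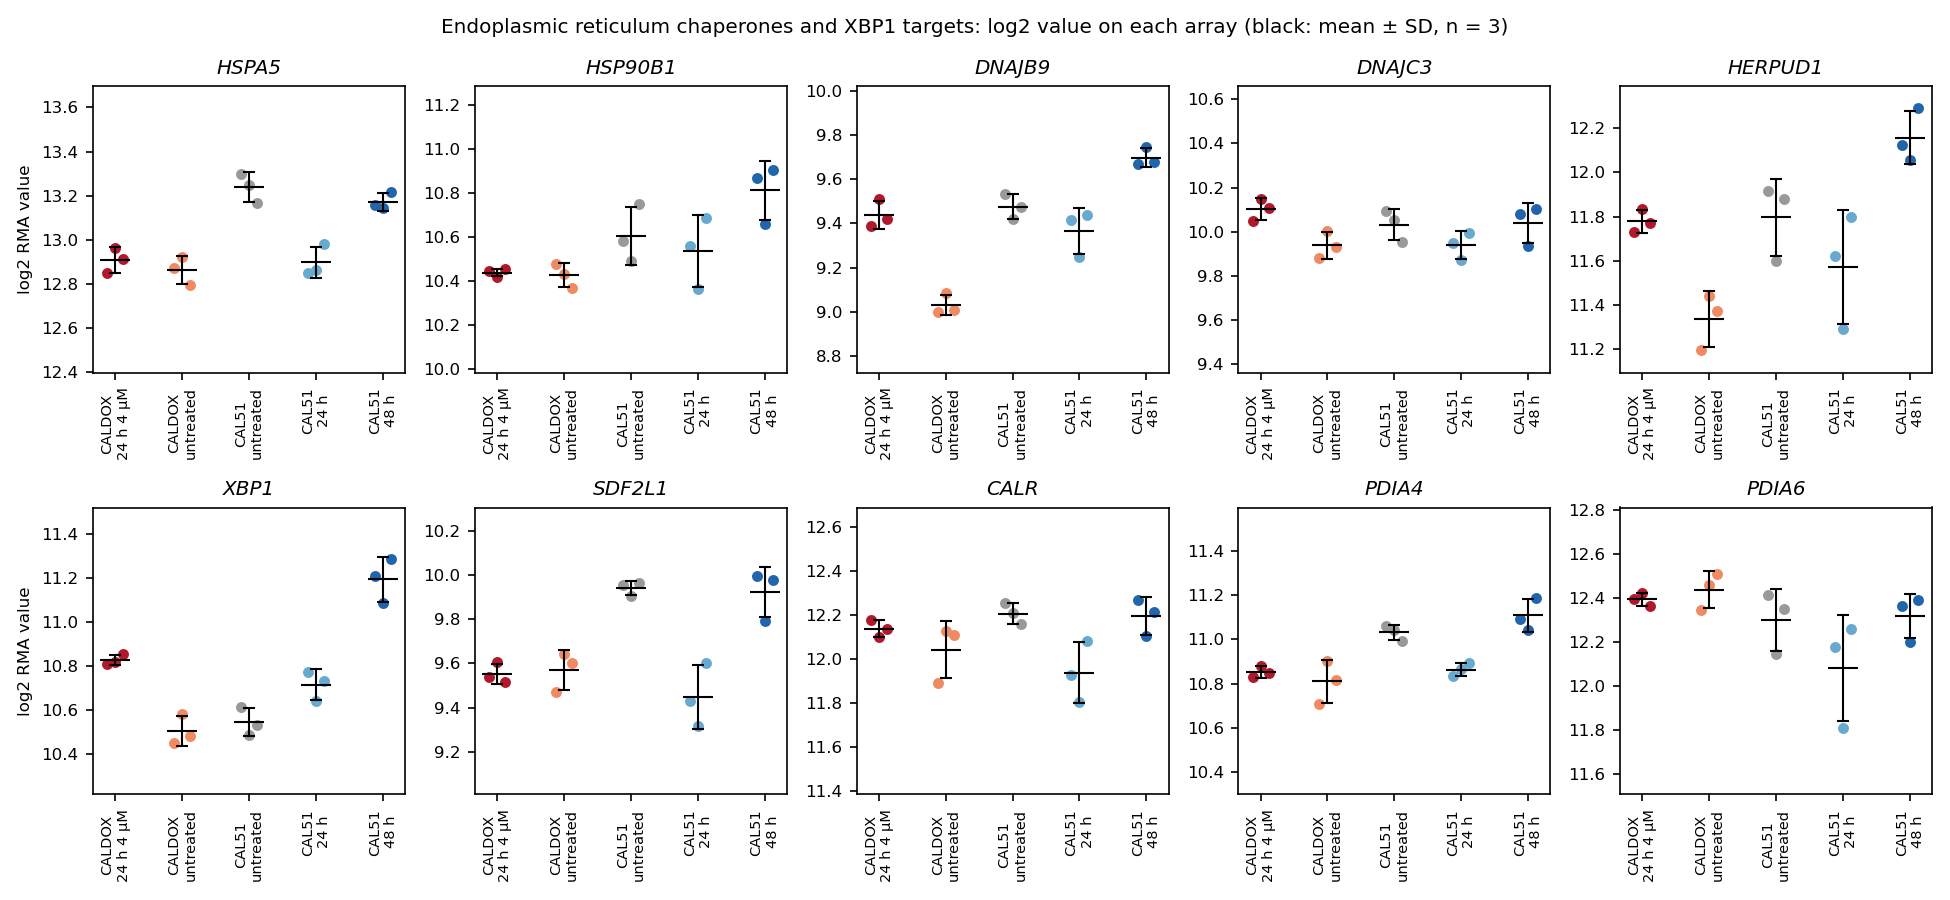
Log2 value of each member's brightest probe set on each of the 15 arrays, with each group's mean and SD in black (n = 3); each vertical axis covers the same span around that gene's own level. HSPA5 and SDF2L1 dip in CAL51 at 24 h and return at 48 h, whereas XBP1 is highest in CAL51 at 48 h and PDIA6 has its lowest mean in CAL51 at 24 h.

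HSPA5, the major chaperone of the endoplasmic reticulum lumen, also called BiP, read 12.85, 12.96 and 12.91 on the treated CALDOX arrays and 12.87, 12.92 and 12.80 on the untreated CALDOX arrays. In CAL51 its values were 13.30, 13.25 and 13.16 without drug, 12.85, 12.86 and 12.98 at 24 h, and 13.16, 13.14 and 13.22 at 48 h. The CALDOX arrays and those of CAL51 at 24 h lay below every array of untreated CAL51 and of CAL51 at 48 h, and those last 2 groups overlapped. HSPA5 was lower in CAL51 at 24 h than without drug by a log2 difference of -0.34 ± 0.06 (limma adjusted p = 0.0018), which is 1.27-fold lower. Here and below, a ± b is the log2 difference with limma's standard error, n = 3 in each group, and p-values are adjusted over 19775 genes. The gene was 0.27 ± 0.06 higher at 48 h than at 24 h (limma adjusted p = 0.0091). Its 48 h level differed from untreated CAL51 by -0.07 ± 0.06 (limma adjusted p = 0.52, 95% interval -0.20 to 0.07). Untreated CALDOX was lower than untreated CAL51 by -0.37 ± 0.06 (limma adjusted p = 0.00018).

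HSP90B1, the endoplasmic reticulum member of the HSP90 family, did not pass the test in any comparison with its brightest probe set. Its values ran from 10.36 to 10.91, and groups next to each other in order of mean overlapped throughout. Untreated CALDOX nevertheless lay below untreated CAL51 without overlap (-0.18 ± 0.09, limma adjusted p = 0.17). CALR, the calcium-binding lectin chaperone calreticulin, read 11.93, 11.80 and 12.08 in CAL51 at 24 h, against 12.25, 12.21 and 12.16 in untreated CAL51. These arrays did not overlap, and the CALR difference was -0.27 ± 0.08 (limma adjusted p = 0.041). That call was lost when any 1 of 9 arrays was left out: each untreated CAL51 array, CAL51 24 h replicates 1 and 2, untreated CALDOX replicate 3 and each treated CALDOX array, with adjusted p of 0.0514 to 0.127. It was also lost with each array centred on its median (adjusted p = 0.082).

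DNAJB9 (ERdj4), a co-chaperone of HSPA5 and a known XBP1 target, read 9.39, 9.51 and 9.42 in treated CALDOX and 9.0005, 9.08 and 9.01 in untreated CALDOX. In CAL51 the values were 9.53, 9.42 and 9.47 untreated, 9.42, 9.25 and 9.44 at 24 h, and 9.67, 9.75 and 9.68 at 48 h. Untreated CALDOX was below and CAL51 at 48 h was above every other group without overlap. DNAJB9 rose in CALDOX on treatment by 0.41 ± 0.06 (limma adjusted p = 0.00048, 1.33-fold), and untreated CALDOX stood below untreated CAL51 by -0.45 ± 0.06 (limma adjusted p = 4.6e-05). At 48 h CAL51 was 0.22 ± 0.06 above untreated CAL51 (limma adjusted p = 0.018). The 48 h call was lost without untreated CAL51 replicate 2 (adjusted p = 0.072), without CAL51 48 h replicate 2 (adjusted p = 0.070) and with the mean of the gene's 3 probe sets (0.11, adjusted p = 0.47). With that mean the difference between 48 h and 24 h was 0.23 (adjusted p = 0.15) and also lost its call.

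SDF2L1, a small lumenal protein found in complex with the HSPA5 co-chaperones, had 9.54, 9.61 and 9.52 in treated CALDOX and 9.47, 9.64 and 9.60 in untreated CALDOX. CAL51 gave 9.96, 9.90 and 9.96 untreated, 9.43, 9.32 and 9.60 at 24 h, and 10.00, 9.79 and 9.98 at 48 h. The arrays of both CALDOX groups and of CAL51 at 24 h lay below those of untreated CAL51 and of CAL51 at 48 h. Its difference of -0.49 ± 0.08 in CAL51 at 24 h (limma adjusted p = 0.00062, 1.41-fold lower) was the largest decrease among the members' brightest probe sets at that time. SDF2L1 was 0.47 ± 0.08 higher at 48 h than at 24 h (limma adjusted p = 0.0012). DNAJC3 (p58IPK), a co-chaperone that also inhibits PERK, kept to 9.87 to 10.15 over the 15 arrays and passed no test.

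The protein disulfide isomerases, which form and rearrange disulfide bonds, had small differences. PDIA4 read 10.83, 10.88 and 10.85 in treated CALDOX and 10.71, 10.90 and 10.82 in untreated CALDOX. The CAL51 arrays gave 11.06, 11.04 and 10.99 untreated, 10.83, 10.86 and 10.89 at 24 h, and 11.09, 11.04 and 11.19 at 48 h. Untreated CALDOX lay below untreated CAL51 without overlap, and the difference was -0.22 ± 0.06 (limma adjusted p = 0.011). The call was lost without untreated CALDOX replicate 1 (adjusted p = 0.064) and with the mean of both probe sets (-0.18, adjusted p = 0.0504). PDIA4 was also 0.25 ± 0.06 higher at 48 h than at 24 h (limma adjusted p = 0.017), a call lost without CAL51 24 h replicate 1 (adjusted p = 0.0665) or CAL51 48 h replicate 3 (adjusted p = 0.0668). PDIA6 ranged from 11.81 on replicate 2 of CAL51 at 24 h to 12.51 in untreated CALDOX and passed no test.

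HERPUD1, a membrane protein that takes part in endoplasmic reticulum-associated degradation, read 11.73, 11.83 and 11.77 in treated CALDOX, against 11.19, 11.44 and 11.37 in untreated CALDOX. In CAL51 it read 11.92, 11.60 and 11.88 untreated, 11.62, 11.29 and 11.80 at 24 h, and 12.13, 12.06 and 12.29 at 48 h. The 48 h arrays were above all others, and the CAL51 24 h arrays spread over a wider range than any other group of this gene. HERPUD1 rose by 0.59 ± 0.12 between 24 h and 48 h (limma adjusted p = 0.0041). In CALDOX the rise on treatment was 0.44 ± 0.12 (limma adjusted p = 0.021), and untreated CALDOX was -0.46 ± 0.12 from untreated CAL51 (limma adjusted p = 0.0063). The CALDOX rise lost its call without untreated CALDOX replicate 1 or 3 or treated CALDOX replicate 2 or 3 (adjusted p of 0.0518 to 0.0975). With the mean of both probe sets, the CALDOX rise was 0.31 (adjusted p = 0.053) and the line difference -0.21 (adjusted p = 0.14), neither of them called.

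XBP1, the transcription factor itself, read 10.81, 10.82 and 10.86 in treated CALDOX, against 10.45, 10.58 and 10.48 in untreated CALDOX. Its CAL51 values were 10.61, 10.49 and 10.53 untreated, 10.77, 10.64 and 10.73 at 24 h, and 11.21, 11.08 and 11.29 at 48 h. The 3 CAL51 times did not overlap, and the untreated groups of the 2 lines did. XBP1 rose by 0.65 ± 0.07 in CAL51 at 48 h (limma adjusted p = 2.5e-06, 1.57-fold) and by 0.32 ± 0.07 in treated CALDOX (limma adjusted p = 0.0039, 1.25-fold). At 24 h in CAL51 the difference was 0.17 ± 0.07 (limma adjusted p = 0.12), and between 24 h and 48 h it was 0.48 ± 0.07 (limma adjusted p = 0.00033). Averaged with its dimmer probe set, the 48 h rise was 0.43 (adjusted p = 0.00019) and that from 24 h to 48 h 0.28 (adjusted p = 0.012). By itself the dimmer set passed no test, with limma p-values adjusted over all probe sets. It gave 0.20 at 48 h (adjusted p = 0.22), 0.08 from 24 h to 48 h (adjusted p = 0.73) and 0.27 in treated CALDOX (adjusted p = 0.15).

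The first comparison asked what 24 h of 0.4 µM doxorubicin did to the members in CAL51. HSPA5, SDF2L1 and CALR fell and 0 members rose, when 4.34% of all genes fell and 5.77% rose. The median member difference was -0.19, against -0.03 over all genes. Of the 10 differences, XBP1 alone had a positive one, 0.17. At an unadjusted p under 0.05 in the same limma fit, 1 member was higher (XBP1) and 5 lower. No member reached a 2-fold change in any comparison.

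At 48 h, XBP1, HERPUD1 (0.36 ± 0.12, limma adjusted p = 0.036) and DNAJB9 were above untreated CAL51, and 0 members were below. Among all genes 10.5% rose and 11.2% fell. The members' median was 0.05, against -0.02 for all genes, and at an unadjusted p under 0.05 limma gave 4 members higher and 0 lower. HERPUD1 lost its call without untreated CAL51 replicate 2 (adjusted p = 0.17), CAL51 48 h replicate 1 (0.068) or CAL51 48 h replicate 3 (0.127), and the count of members that rose was 1 without untreated CAL51 replicate 2.

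From 24 h to 48 h in CAL51 most members rose. HERPUD1, XBP1, SDF2L1, DNAJB9, HSPA5 and PDIA4 passed the test, 6 of 10, while 4.37% of all genes rose and 5.34% fell, and 0 members fell. All 10 differences were positive, with a median of 0.28 against 0.01 over all genes, and 9 were higher at an unadjusted p under 0.05. HSP90B1 (0.28 ± 0.09, limma adjusted p = 0.062) and CALR (0.26 ± 0.08, limma adjusted p = 0.051) did not pass. This comparison and the first share the 24 h arrays, so low 24 h values enter both. With only the arrays of these 2 groups in the fit, 3 members passed, and over all genes 263 rose instead of 864.

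Untreated CALDOX was compared with untreated CAL51 to see how the untreated lines differ. HERPUD1, DNAJB9, HSPA5, SDF2L1 and PDIA4 were lower in CALDOX, 5 of 10, and 0 were higher, where 11.7% of all genes were lower and 14.2% higher. The median was -0.20 for the members and 0.0034 for all genes, and at an unadjusted p under 0.05 limma again gave 5 lower and 0 higher. SDF2L1 differed by -0.37 ± 0.08 (limma adjusted p = 0.0017). These calls are of the brightest probe sets. With the mean of all probe sets of a gene, HSP90B1 (-0.29, limma adjusted p = 0.00048) and CALR (-0.41, limma adjusted p = 0.0013) were also lower, while HERPUD1 and PDIA4 lost their calls. XBP1 differed by -0.04 ± 0.07 (limma adjusted p = 0.75, 95% interval -0.18 to 0.10), and PDIA6 had the only positive difference, 0.14 ± 0.10 (limma adjusted p = 0.41). The dimmer PDIA6 probe sets gave -0.05, 0.14 and 0.09. The untreated CAL51 arrays serve this comparison and both CAL51 time comparisons.

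Treated CALDOX was set against untreated CALDOX, for which the labels do not state drug-free growth. HERPUD1, DNAJB9 and XBP1 rose and 0 members fell, beside 4.82% and 5.5% of all genes. By their brightest probe sets, 3 others had small differences: HSPA5 0.05 ± 0.06 (limma adjusted p = 0.77, 95% interval -0.08 to 0.18), HSP90B1 0.01 ± 0.09 and SDF2L1 -0.02 ± 0.08. DNAJC3, at 0.16 ± 0.06 (limma adjusted p = 0.14), did not pass. The dimmer sets of HSP90B1 and HSPA5 gave -0.21 ± 0.07 and -0.11 ± 0.08 (limma adjusted p = 0.098 and 0.54 over all probe sets). The members' median was 0.07, against -0.01 for all genes, and at an unadjusted p under 0.05 limma gave 4 members higher and 0 lower.

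**Figure D2:**
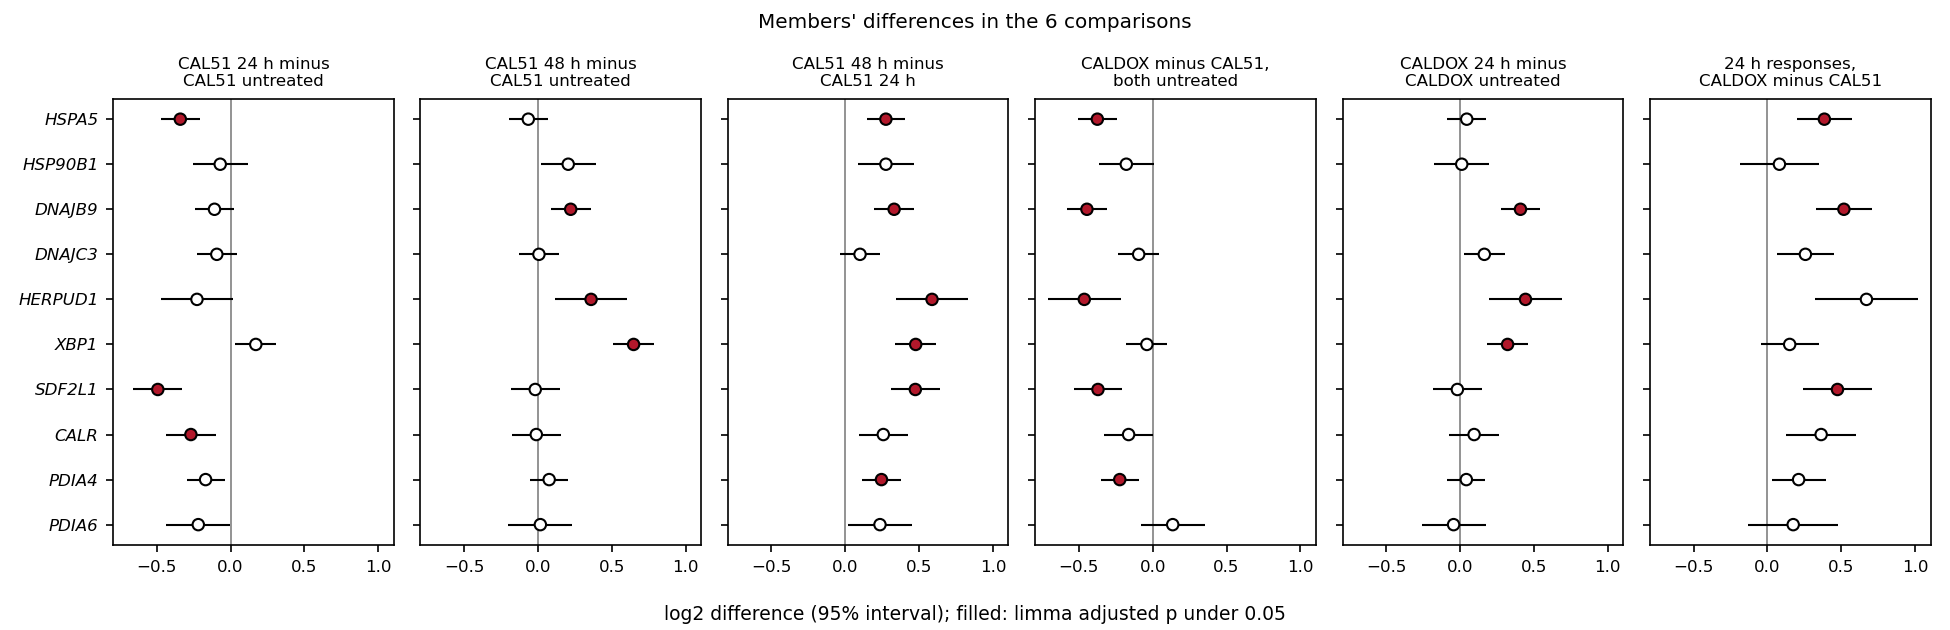
Log2 difference of each member in the 6 comparisons, with its 95% interval from limma; filled points have an adjusted p under 0.05. Every point of the 48 h against 24 h panel and of the difference between the lines' 24 h responses lies to the right of 0, and only XBP1 does so in CAL51 at 24 h.

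The 24 h responses of the lines were compared by their difference, the change in CALDOX minus the change in CAL51. The doses were 4 µM in CALDOX and 0.4 µM in CAL51, so line and dose cannot be told apart. DNAJB9 (0.52 ± 0.09, limma adjusted p = 0.0067), SDF2L1 (0.47 ± 0.11, limma adjusted p = 0.043) and HSPA5 (0.39 ± 0.09, limma adjusted p = 0.038) responded more positively in CALDOX, and 0 members more negatively. Over all genes 0.576% passed in the positive direction and 0.855% in the negative. All 10 member differences were positive by the brightest probe sets, with a median of 0.31 against 0.01 over all genes. A dimmer PDIA6 set gave -0.004. HERPUD1 had the highest value, 0.67 ± 0.16, at a limma adjusted p of 0.058, and its 95% interval ran from 0.32 to 1.02. The response of SDF2L1 was -0.02 in CALDOX and -0.49 in CAL51, that of HSPA5 0.05 and -0.34, and that of DNAJB9 0.41 and -0.11, in the same order of lines. The untreated arrays of both lines serve this comparison too, so the lower untreated CALDOX level reported above enters it. Treated CALDOX and CAL51 at 24 h overlapped for these genes, with means higher in CALDOX by 0.10 for SDF2L1, 0.01 for HSPA5 and 0.07 for DNAJB9. At an unadjusted p under 0.05, 7 members were more positive and 0 more negative.

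These calls depended on single arrays. HSPA5 lost its call when any 1 of 9 arrays was left out, with adjusted p of 0.0546 to 0.117: untreated CAL51 replicates 1 and 2, CAL51 24 h replicates 1 and 2, untreated CALDOX replicates 1 and 3, and each treated CALDOX array. SDF2L1 lost it without any 1 of 12 arrays, all but CAL51 24 h replicate 3 and CAL51 48 h replicates 1 and 2, with adjusted p of 0.0517 to 0.12. DNAJB9 kept its call without any single array and lost it with the mean of its 3 probe sets (adjusted p = 0.083). Direction was the same in each of these fits.

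Several members have more than 1 probe set, and these did not always give the same size. HSPA5 had a second, dimmer one, which was lower in CAL51 at 24 h by -0.41 ± 0.08 (limma adjusted p = 0.0025 over all probe sets), and was -0.30 ± 0.08 in untreated CALDOX against untreated CAL51 (limma adjusted p = 0.0082). For CALR, the probe set with a mean of 10.0 read 9.72, 9.43 and 9.87 in CAL51 at 24 h, against 10.71, 10.46 and 10.66 in untreated CAL51. Those arrays did not overlap, and the difference of -0.94 ± 0.11 (limma adjusted p = 2.4e-05) compares with -0.27 for the brightest. It was still lower at 48 h, by -0.56 ± 0.11 (limma adjusted p = 0.0014), where the brightest gave -0.01. Between the lines it gave -0.71 ± 0.11 (limma adjusted p = 8.8e-05) for untreated CALDOX minus untreated CAL51.

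The dimmer HSP90B1 probe set read 8.81, 8.92 and 8.82 in CAL51 at 24 h, against 9.56, 9.52 and 9.34 in untreated CAL51, without overlap. It differed by -0.63 ± 0.07 (limma adjusted p = 2.7e-05), although the brightest gave -0.07 ± 0.09. From 24 h to 48 h the dimmer set rose by 0.55 ± 0.07 (limma adjusted p = 0.00032). It was lower in untreated CALDOX than in untreated CAL51 by -0.40 ± 0.07 (limma adjusted p = 0.00051). Both HSP90B1 sets, 2 of the 3 CALR sets and the brightest PDIA6 set carry the platform's mark for probes that may match other transcripts. The part of this in the unequal sizes was not tested. A further 2 probe sets list HSP90B1 together with another gene and were not used. The 3 DNAJB9 sets were each lower in untreated CALDOX than in untreated CAL51, by -0.45, -0.26 and -0.59. Of the 25 member probe sets, 7 fell and 0 rose in CAL51 at 24 h, where 3.3% of all 41091 probe sets fell. At 48 h, 3 member sets rose and 1 fell, beside 8.37% and 9.49% of all probe sets. From 24 h to 48 h, 9 rose and 0 fell, where 2.88% of all probe sets rose. In untreated CALDOX 11 were lower and 0 higher than in untreated CAL51, where 11.5% of all probe sets were lower. On treatment of CALDOX 4 rose and 0 fell, where 3.81% of all probe sets rose, and in the difference of responses 2 were more positive and 0 more negative, where 0.414% of all probe sets were more positive.

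**Figure D3:**
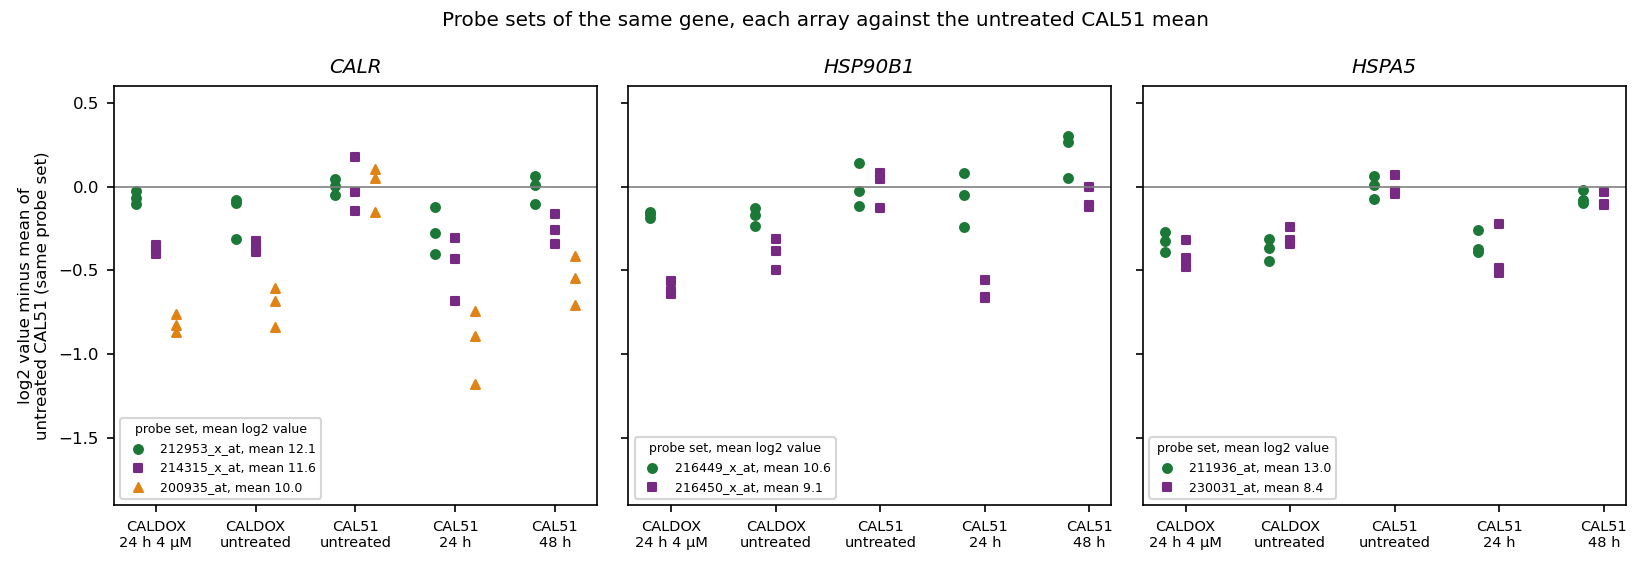
Each array's log2 value minus the untreated CAL51 mean of the same probe set, for all probe sets of CALR, HSP90B1 and HSPA5. The dimmest CALR set and the dimmer HSP90B1 set lie further below 0 in CAL51 at 24 h than the brightest set of the same gene, and the HSPA5 sets lie together.

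Other genes of the pathway were counted from lists of known function. Of the 6 sensors and their proteases, 0 passed in either direction in the 5 comparisons other than that of the untreated lines (limma adjusted p under 0.05). At an unadjusted p under 0.05, 1 was higher from 24 h to 48 h in CAL51 and 1 in treated CALDOX. In untreated CALDOX, EIF2AK3, which encodes PERK, was lower than in untreated CAL51 by a log2 difference of -0.55 ± 0.12 (limma adjusted p = 0.0027). MBTPS2, the protease that completes ATF6 cleavage, was lower there by -0.44 ± 0.08 (limma adjusted p = 0.00033). Of 20 further folding genes, 5 fell and 1 rose in CAL51 at 24 h, beside 4.34% and 5.77% of all genes. Those that fell included HYOU1, the large lumenal chaperone that releases nucleotide from HSPA5, at -0.42 ± 0.08 (limma adjusted p = 0.003), and MANF, a secreted stress-induced protein, at -0.42 ± 0.07 (limma adjusted p = 0.00063). In untreated CALDOX 8 of the 20 were lower and 2 higher, beside 11.7% and 14.2% of all genes. SERPINH1, the collagen chaperone, was at -0.73 ± 0.06 (limma adjusted p = 6.7e-08) and DNAJB11, a co-chaperone of HSPA5, at -0.47 ± 0.07 (limma adjusted p = 3.6e-05).

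SIL1, a nucleotide exchange factor of HSPA5, rose in CAL51 at 48 h by 0.60 ± 0.06 (limma adjusted p = 4.9e-06) and in treated CALDOX by 0.52 ± 0.06 (limma adjusted p = 7.4e-05), and was 0.40 ± 0.06 higher in untreated CALDOX than in untreated CAL51 (limma adjusted p = 0.00015). Of the 20, 2 rose and 3 fell at 48 h in CAL51, near the shares over all genes, 10.5% and 11.2%. From 24 h to 48 h 2 rose and 0 fell, beside 4.37% and 5.34% of all genes. In treated CALDOX 3 of the 20 rose and 0 fell, beside 4.82% and 5.5%. In the difference of responses 1 of the 20 passed, HYOU1 at 0.50 ± 0.12 (limma adjusted p = 0.041), beside 0.576% of all genes in that direction.

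Among 17 degradation genes, EDEM2, which helps select misfolded glycoproteins, rose in CAL51 at 48 h by 0.69 ± 0.07 (limma adjusted p = 1.5e-06) and in treated CALDOX by 0.62 ± 0.07 (limma adjusted p = 1.8e-05). SEL1L, the partner of the HRD1 ubiquitin ligase, was the 1 that fell in CAL51 at 24 h, where 4.34% of all genes fell, by -0.31 ± 0.06 (limma adjusted p = 0.0018). It was also lower in untreated CALDOX, by -0.36 ± 0.06 (limma adjusted p = 0.00011), and its response differed between lines by 0.48 ± 0.08 (limma adjusted p = 0.0055). In this list 2 rose and 1 fell at 48 h, beside 10.5% and 11.2% of all genes. From 24 h to 48 h 3 rose, beside 4.37%, and in treated CALDOX 4 rose, beside 4.82%. In untreated CALDOX 3 were higher and 4 lower than in untreated CAL51, beside 14.2% and 11.7% of all genes. Of 19 import and translocon genes, 7 were lower and 2 higher in untreated CALDOX, beside the same 11.7% and 14.2% of all genes. SEC63, which couples HSPA5 to the translocon, was the most changed at -1.002 ± 0.10 (limma adjusted p = 6.3e-07). In treated CALDOX 3 of the 19 rose and 0 fell, beside 4.82% and 5.5% of all genes.

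The 11 genes of the ATF4 and CHOP arm are given beside the members. In CAL51 at 24 h, 6 fell and 0 rose, beside 4.34% and 5.77% of all genes. TRIB3, a pseudokinase induced by ATF4 and CHOP, was at -1.34 ± 0.06 (limma adjusted p = 1.2e-09) and ATF4 at -0.72 ± 0.06 (limma adjusted p = 4.4e-07). At 48 h 4 rose and 5 fell, beside 10.5% and 11.2% of all genes, and 6 rose from 24 h to 48 h, beside 4.37%. In untreated CALDOX TRIB3 was -1.38 ± 0.06 from untreated CAL51 (limma adjusted p = 8.2e-11). There 3 of the list were higher and 6 lower, beside 14.2% and 11.7% of all genes. The median difference of this arm at 24 h in CAL51 was -0.27, beside -0.19 for the members and -0.07 for the sensors. In the difference of responses 6 of the 11 passed, all more positive in CALDOX, beside 0.576% of all genes in that direction. TRIB3 was at 1.09 ± 0.09 (limma adjusted p = 1.6e-05). Within CALDOX, however, 3 of the 11 rose on treatment and 1 fell, beside 4.82% and 5.5% of all genes. The 1 that fell was TRIB3, by -0.26 ± 0.06 (limma adjusted p = 0.014), a smaller decrease than in CAL51.

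**Figure D4:**
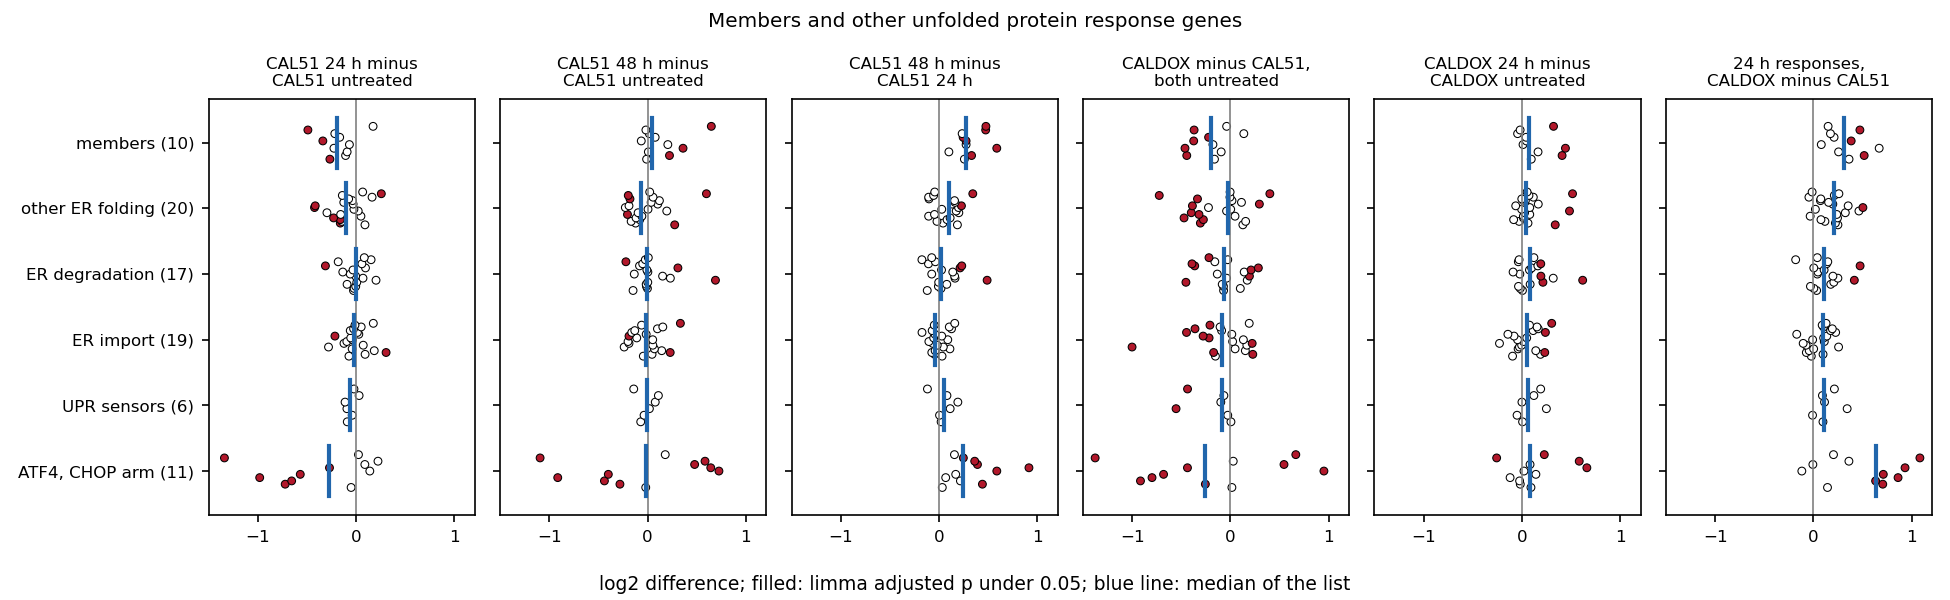
Log2 difference of every measured gene in the members and in the 5 other lists, in the 6 comparisons, with filled points at an adjusted p under 0.05 and a blue line at each list's median. The ATF4 and CHOP arm has the widest spread, reaching -1.38 for TRIB3, and the members' median is -0.19 in the 24 h panel and 0.28 in the 48 h against 24 h panel.

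The promoter elements were set beside the values. The 7 members with ERSE or ERSE-II in the window had a median of -0.23 in CAL51 at 24 h, and 3 of them fell. Another 30 measured genes hold either element, and 4 of these fell and 2 rose, with a median of -0.08. Among all genes 4.34% fell and 5.77% rose in this comparison, with a median of -0.03. The 4 of the 30 that fell were HYOU1, NUCB1 (-0.26, limma adjusted p = 0.0062), CANX (-0.16, limma adjusted p = 0.045) and CRELD2, an endoplasmic reticulum protein (-0.16, limma adjusted p = 0.046). The set itself was chosen after the values were seen. HYOU1, CANX and CRELD2 also belong to the further folding genes counted above. The 2 that rose were TRIM5 (1.14, limma adjusted p = 9.2e-05) and GYS1 (0.29, limma adjusted p = 0.0028). In untreated CALDOX 8 of the 30 were lower and 2 higher than in untreated CAL51, with a median of -0.07, where 11.7% of all genes were lower and 14.2% higher. From 24 h to 48 h their median was 0.07, against 0.28 for the 7 members.

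The genes whose pattern over the 15 arrays was most like the mean of the members, among 13078 genes with a mean log2 value of at least 7, were MXRA7 (r = 0.95), CORO1B (0.94), B3GNT7 (0.92), TMEM184B (0.91), IVNS1ABP (0.91) and APLP2 (0.89). Each of these 6 was highest in CAL51 at 48 h. Most like HSPA5 alone were CBS (r = 0.93), CLIC4 (0.93), SARS1 (0.91), PDHB (0.91), SEL1L (0.90) and WARS1 (0.90), each highest in untreated CAL51. CBS, the cystathionine synthase of cysteine synthesis, averaged 11.03 in CAL51 at 24 h, against 11.44 in untreated CAL51. SARS1 and WARS1 encode the seryl- and tryptophanyl-tRNA synthetases. They were picked as the highest of all those genes, over arrays that share 5 groups, so the coefficients carry no test.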

How the data were processed

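The authors deposited log2 probe-set intensities. The submitters' processing notes name RMA, which removes background, brings arrays to a common distribution and combines the probes of a set. It compresses fold changes of dim probe sets. Its version and the log base are not given in the sources used here, and log2 was taken from the range, 3.08 to 14.8. Nothing was renormalized, and scanner files were not used here.

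Each of 19775 genes was represented by its brightest single-symbol probe set by the mean over 15 arrays. A mean for each of 5 groups was fitted with limma 3.58.1 in R 4.3.3 (lmFit, eBayes), with 10 residual and 5.4 prior degrees of freedom. P-values were two-sided, adjusted by Benjamini-Hochberg over all genes of a comparison, and called under 0.05. The code was tested on simulated data.

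The members and lists were chosen with earlier results of these data known. The rule named all 10 members and, in each other list and comparison, the 3 genes with the largest absolute difference; some of these are plotted without being named in the text. Also named were the 6 genes most correlated with the members' mean and the 6 with HSPA5. Some listed genes were not analysed here.

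The main fit did not pair arrays by replicate number. Same-numbered arrays' deviations correlated at -0.29 to 0.46, above 0.1 in 7 of 15 pairs, and the same number gave the best match in 7. In CAL51, replicate 2 matched its own number best in each comparison of times, at 0.37 (24 h and untreated), 0.19 (48 h and untreated) and 0.40 (48 h and 24 h). Another 25 settings were run, 15 of them leaving out 1 array. Promoters were read from RefSeq with Python 3.11.15. The number of arrays limits the precision.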

Additional observations from a re-analysis of the deposited data

Results flagged for a closer look

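The difference between the lines' 24 h responses passed limma's test for 3 members, at 4 µM in CALDOX and 0.4 µM in CAL51. DNAJB9 differed by 0.52 ± 0.09 (adjusted p = 0.0067): its response was 0.41 in CALDOX and -0.11 in CAL51. SDF2L1 differed by 0.47 ± 0.11 (adjusted p = 0.043), with responses of -0.02 in CALDOX and -0.49 in CAL51. HSPA5 differed by 0.39 ± 0.09 (adjusted p = 0.038), with responses of 0.05 in CALDOX and -0.34 in CAL51. Line and dose cannot be told apart in these values, nor can the drug-free passages of treated CALDOX. The treated groups of both lines overlapped for each of these genes. Each response is taken from the line's own untreated arrays, so the lower untreated CALDOX level enters these differences.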

How the results depend on the processing

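No member turned its direction in a call under any of the 25 settings. Of 1500 values of a member in a comparison and a setting, 1388 stayed on the same side of the threshold. Leaving out 1 array ended 42 calls and added 7, and the other settings ended 20 and added 43. In CAL51 at 24 h, members that rose numbered 1 instead of 0 (XBP1) with repeated quantile normalization and with array weights, whose estimation stopped before converging, and members that fell 6 instead of 3 with array spread as a covariate. That covariate also raised the count of all genes that fell there from 858 to 1635. At 48 h 1 instead of 0 fell with the mean of all probe sets (CALR), and from 24 h to 48 h 3 instead of 6 rose with only the arrays compared. For the difference of responses, 3 members became 1 with every probe set tested, median centring or the replicate block, 5 with array weights or a trend and robust prior, and 6 with repeated quantile normalization or array spread as a covariate. The replicate block ended 1 other call, CALR at 24 h (adjusted p = 0.055), and added HSP90B1 from 24 h to 48 h (adjusted p = 0.035). Leaving out 1 array gave 2 to 3 members that fell at 24 h, 1 to 3 that rose at 48 h, 5 to 8 that rose from 24 h to 48 h, 4 to 5 that were lower in CALDOX, 2 to 3 that rose in treated CALDOX, and 1 to 4 in the difference. Over all genes, the counts that rose and fell, 1141 and 858 at 24 h, ranged from 600 to 1642 and 270 to 1635; 864 and 1056 from 24 h to 48 h, from 263 to 1431 and 302 to 1457; 954 and 1087 in treated CALDOX, from 649 to 2086 and 672 to 2875; and 114 and 169 in the difference, from 69 to 528 and 91 to 703. The cause of these shifts was not tested.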
